A study of Mus musculus with 2 samples.

Results

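The genes described here are Rag1, Rag2, Dntt, Ptcra, Igll1, Vpreb1 and Vpreb3, which encode the V(D)J recombinase, an enzyme that edits its joints, and the invariant chains of the pre-T and pre-B cell receptors. They were taken by symbol from the deposited expression values, where all 7 were found among 27179 genes. The samples were group 2 innate lymphoid cell progenitors (ILC2 progenitors, precursors in the marrow of innate lymphocytes that secrete type 2 cytokines), isolated by cell sorting from the bone marrow of C57BL/6 mice at 8 weeks of age. They form 1 group of 2 libraries, each from a pool of 8 mice, with no other genotype, treatment or time. Which antibodies defined the sort is not given in the sources used here, and pooling leaves the spread between single mice unmeasured.

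Values are read counts scaled to gene length and to library depth (RPKM), and means carry the SD over the 2 pools (n = 2). The depth recovered from the values was 20216146 reads for pool 1 and 19834586 for pool 2, so that 3 reads on 1 kb of gene correspond to 0.148 and 0.151 RPKM. The pools are numbered in accession order. The column heading of each file carries the code of the other sample (0 of 2 headings matched their own), so if the headings are right the names of the pools are exchanged throughout. The listed ILC2 markers were present: 12 of 12 reached 1 RPKM in both pools, against 40.5% of all genes. They were led by Ly6a (Sca-1) at 1160.4 ± 224 RPKM and the IL-7 receptor gene Il7r at 411 ± 77.9 RPKM.

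B and T lymphocytes build their antigen receptors by cutting and rejoining gene segments. The RAG1 and RAG2 proteins together form the recombinase that cuts at the segment borders, end-joining proteins of the general DNA repair machinery seal the breaks, and terminal deoxynucleotidyl transferase (TdT, from Dntt) adds untemplated nucleotides at the joints. A rearranged T cell receptor beta chain is tested with the pre-T alpha chain (from Ptcra), and a rearranged immunoglobulin heavy chain with the surrogate light chain, made of VpreB and lambda 5 (from Igll1). Innate lymphoid cells arise from lymphoid progenitors but do not need a rearranged antigen receptor.

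The 7 genes were low in these cells. Of the 7, only Vpreb3 reached 1 RPKM in both pools (1 of 7, or 14.3%), against 40.5% of all 27179 genes. Reads were found in both pools for 5 of 7 members, against 56.3% of all genes. In all, 80 reads fell on the 7 genes in pool 1 and 383 in pool 2, which is 3.96 and 19.3 per 1000000 reads. The median level of the members was -0.37 on the scale log2(RPKM + 0.1), where all genes had a median of -1.82 and the genes above 0 in either pool one of 2.31. These are bulk libraries, so a few cells with much of a transcript and many cells with little of it cannot be told apart.

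**Figure D1:**
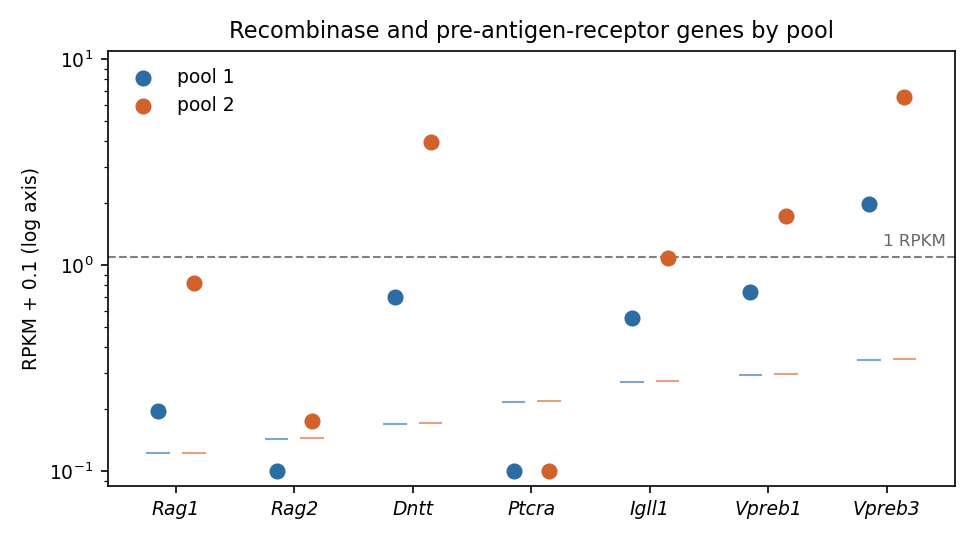
Level of each gene in each pool, as RPKM + 0.1 on a log axis, with pool 1 in blue and pool 2 in orange. Short lines mark the value of 3 reads and the dashed line 1 RPKM; pool 2 lies above pool 1 for 6 of the 7 genes, and Ptcra is at 0 in both.

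Both recombinase genes were low, and Rag2 was close to the lower limit of the assay. Rag1, the catalytic subunit (Entrez ID 19373, chromosome 2, 101638282 to 101649501, minus strand, mm10), had 0.0964 RPKM in pool 1 and 0.718 RPKM in pool 2, from 13 and 95 reads. Rag2, its partner subunit on the same chromosome (Entrez ID 19374, 101624718 to 101632529, plus strand), had 0 reads in pool 1 and 5 reads or 0.0743 RPKM in pool 2. In pool 1 a floor of 3 reads would be 0.0437 RPKM, and the 95% exact interval of 0 reads reaches 3.69 reads. Neither subunit reached 1 RPKM in either pool. Within pool 2, Rag1 exceeded Rag2 by 9.67-fold per length (95% counting interval 4.0 to 30.5). The lowest Rag1 value lay above the highest Rag2 value, so the order of the subunits was the same in both pools.

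Both recombinase genes lie inside a longer gene. B230118H07Rik, also named Iftap or NWC, spans 101560781 to 101649532 on the minus strand of chromosome 2, and its exons share 80 bases with those of Rag1 and 208 bases with those of Rag2. It stood at 6.06 RPKM (pool 1) and 4.91 RPKM (pool 2), above both recombinase genes. Whether the counting used strand is not given in the sources used here, so reads in the shared bases of Rag2, which runs the other way, may not be told apart, and the few Rag2 reads are uncertain for that reason. Reads in the 80 bases shared with Rag1, on the same strand, cannot be assigned to either gene by position. Traf6, the signalling adaptor gene upstream of Rag1, was at 20.9 RPKM in either pool, Commd9 at 14.7 and 15.1 RPKM, and Prr5l at 0.178 and 0.692 RPKM. Genes of the same stretch of chromosome thus ranged from 0 to 20.9 RPKM.

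**Figure D2:**
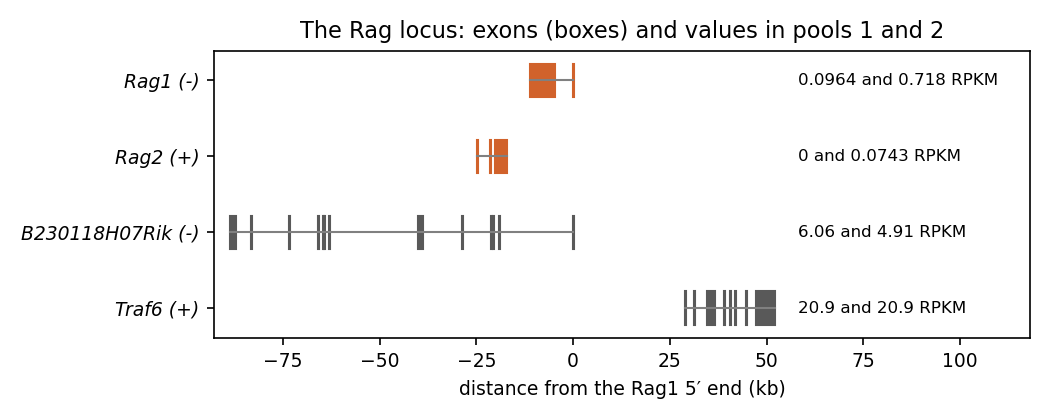
Exons (boxes) of Rag1, Rag2, B230118H07Rik and Traf6, placed by distance in kb from the Rag1 5′ end, with the RPKM of pools 1 and 2 at the right. Rag1 and Rag2 lie within the span of B230118H07Rik, which at 6.06 and 4.91 RPKM exceeds both.

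Dntt was the second most abundant member by its mean. It encodes TdT (Entrez ID 21673, chromosome 19, 41029275 to 41059525, plus strand) and had 0.604 RPKM in pool 1 and 3.88 RPKM in pool 2, from 26 and 164 reads. Its ratio to Rag1 was 6.26 in pool 1 (95% counting interval 3.10 to 13.3) and 5.41 in pool 2 (4.17 to 7.03), and these intervals overlap. TdT belongs to a polymerase family whose other members Polm and Poll act in general end joining. These were higher: Polm was at 13.3 and 11.2 RPKM and Poll at 12.2 and 9.60 RPKM in pools 1 and 2. Polm exceeded Dntt by 22.01-fold in pool 1 and by 2.87-fold in pool 2.

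Reads fell on Igll1, Vpreb1 and the related gene Vpreb3 in both pools, and of these only Vpreb3 reached 1 RPKM in both. Vpreb3, whose product binds newly made immunoglobulin chains inside B lineage cells (Entrez ID 22364, chromosome 10, 75943057 to 75949657, plus strand), was the highest member at 1.89 and 6.45 RPKM, from 23 and 77 reads. Vpreb1 (Entrez ID 22362, chromosome 16, 16868403 to 16870843, minus strand) was at 0.644 and 1.64 RPKM, from 10 and 25 reads. Igll1, the lambda 5 gene next to it (Entrez ID 16136, 16860671 to 16863985, minus strand), was at 0.455 and 0.985 RPKM, from 8 and 17 reads. Vpreb1 over Igll1 was 1.42 in pool 1 (95% counting interval 0.503 to 4.13) and 1.67 in pool 2 (0.864 to 3.29), and both intervals include equal levels. Vpreb3 exceeded Vpreb1 by 2.93-fold (1.34 to 6.91) and 3.93-fold (2.47 to 6.44), and neither interval reaches equality.

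Vpreb1 has a near-identical copy, Vpreb2 (chromosome 16, 17980428 to 17981273, plus strand). It was at 0 in pool 1 and 0.118 RPKM in pool 2, where the value fits 1 read. The coding sequences of both genes are 429 bases long and differ at 9 positions (97.9% identity), with identical runs of up to 196 bases, so reads of either may have been split or dropped by the counting. The last 99 bases of each coding sequence (positions 331 to 429, counted from the start codon, GENCODE M21) hold 5 of the differences, in capitals, and show how little sets the copies apart.
Vpreb1: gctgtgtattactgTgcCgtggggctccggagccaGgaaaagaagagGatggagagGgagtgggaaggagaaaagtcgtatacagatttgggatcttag
Vpreb2: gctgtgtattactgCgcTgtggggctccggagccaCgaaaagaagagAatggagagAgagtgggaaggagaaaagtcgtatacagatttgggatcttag
Vpreb1 also shares 108 exon bases with Top3b on the other strand.

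Ptcra, the pre-T alpha gene (Entrez ID 19208, chromosome 17, 46755663 to 46763712, minus strand), was the only member without a read in either pool. At its annotated length of 1283 bases, 0 reads allow up to 0.116 RPKM in pool 1 and 0.118 in pool 2. By mean level the order was Vpreb3, Dntt, Vpreb1, Igll1, Rag1, Rag2 and Ptcra. Only between Rag1 and Rag2 did the values of neighbours in this order not overlap across the pools. In pool 1 alone Vpreb1 stood slightly above Dntt.

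Pool 2 held more of these transcripts than pool 1. With 1 library a side the difference has no replicate check, and intervals cover counting error only. Of the 7 members 6 were higher in pool 2 and 0 in pool 1, where 57.0% of the 17233 genes above 0 in either pool were higher in pool 2. On the log2(RPKM + 0.1) scale, which understates the change of low genes, 4 of 7 (Rag1, Dntt, Vpreb1 and Vpreb3) were at least 2-fold higher in pool 2 and 0 of 7 in pool 1. The share 2-fold higher in pool 1 was 3.63% of the 17233 genes. The share 2-fold higher in pool 2 was 5.27% of the 17233 genes, and 12.0% of the 6694 genes whose mean lies in the range of the members with reads (0.0371 to 4.17 RPKM), of which 58.3% were higher in pool 2 by any amount.

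In reads relative to library depth, without a pseudocount, Rag1 was 7.45-fold higher in pool 2 (95% counting interval 4.15 to 14.5) and Dntt 6.43-fold (4.23 to 10.1). Vpreb3 was 3.41-fold higher (2.12 to 5.70) and Vpreb1 2.55-fold (1.18 to 5.94). Igll1 was 2.17-fold higher with an interval of 0.886 to 5.80, which includes no difference. For Rag2, 5 reads against 0 would be 1.70-fold higher if pool 1 is set to a floor of 3 reads, which leaves out the error of the 5. Its counting interval reaches down to 0.934, which includes no difference. The intervals of Rag1 and Dntt overlap those of Vpreb3, Vpreb1 and Igll1, and whether the genes differ in their ratio was not tested.

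**Figure D3:**
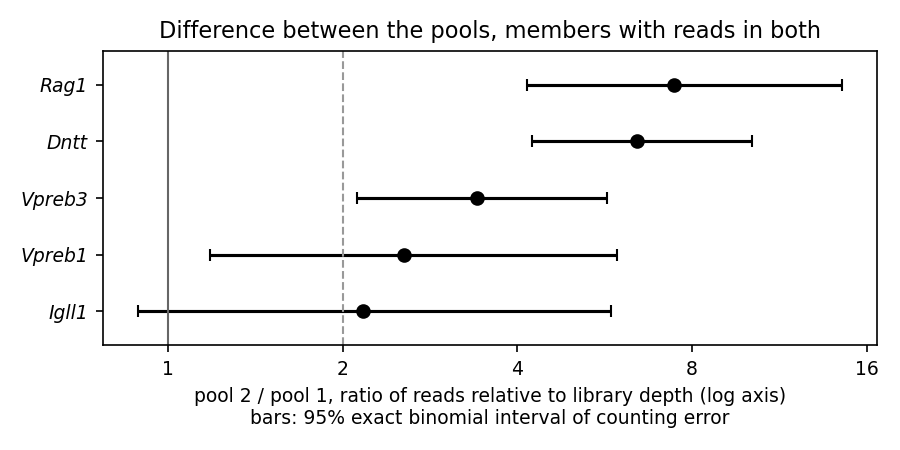
Ratio of pool 2 to pool 1 in reads relative to library depth (log axis) for the 5 genes with reads in both pools; points are ratios and bars 95% exact binomial intervals of counting error. The interval of Igll1 (0.886 to 5.80) includes 1 and the other 4 lie above it.

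The promoters of 4 members are shown because their genes were higher in pool 2 and span the roles above: recombinase, TdT, lambda 5 and VpreB3. Each is the 250 bases before the RefSeq start (GRCm38.p6), 5′ to 3′ on the gene's strand. They lie at chr2:101649533-101649782 (Rag1, minus strand), chr19:41029025-41029274 (Dntt, plus strand), chr16:16863986-16864235 (Igll1, minus strand) and chr10:75948050-75948299 (Vpreb3, plus strand). The RefSeq start used for Vpreb3 lies inside the GENCODE span given above, so its window is not upstream of that whole span. The Rag1 window lies directly before position 101649532, the 5′ end of B230118H07Rik on the same strand, and not directly before the GENCODE end of Rag1 at 101649501. It is thus equally the window of B230118H07Rik, which had 6.06 RPKM in pool 1 and 4.91 in pool 2. Capitals mark matches on either strand to the E-box of E2A proteins (CAGNTG), a RUNX motif (TGTGGT), an EBF motif (CCCNNGGG) and the immunoglobulin octamer (ATTTGCAT).
Rag1: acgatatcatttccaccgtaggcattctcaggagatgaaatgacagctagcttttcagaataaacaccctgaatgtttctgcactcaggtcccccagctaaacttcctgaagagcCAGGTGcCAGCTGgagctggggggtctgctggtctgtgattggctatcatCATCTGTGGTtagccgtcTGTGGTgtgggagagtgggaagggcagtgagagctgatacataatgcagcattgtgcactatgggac
Dntt: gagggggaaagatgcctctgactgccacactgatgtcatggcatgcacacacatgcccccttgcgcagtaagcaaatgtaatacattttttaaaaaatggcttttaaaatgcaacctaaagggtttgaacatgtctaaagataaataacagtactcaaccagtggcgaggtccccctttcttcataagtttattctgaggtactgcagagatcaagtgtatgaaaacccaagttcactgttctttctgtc
Igll1: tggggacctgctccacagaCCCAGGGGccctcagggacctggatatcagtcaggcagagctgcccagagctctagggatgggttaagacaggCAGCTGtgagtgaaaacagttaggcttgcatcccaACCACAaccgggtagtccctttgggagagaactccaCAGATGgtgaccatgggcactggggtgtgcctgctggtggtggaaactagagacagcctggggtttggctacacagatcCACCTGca
Vpreb3: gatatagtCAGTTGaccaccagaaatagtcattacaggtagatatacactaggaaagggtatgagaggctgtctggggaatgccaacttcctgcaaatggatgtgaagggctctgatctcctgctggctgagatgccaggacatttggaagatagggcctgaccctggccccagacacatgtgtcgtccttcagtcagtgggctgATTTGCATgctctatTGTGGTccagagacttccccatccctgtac
The Rag1 window held 3 E-boxes and 2 RUNX motifs, one pair of which overlaps. The Igll1 window held 3 E-boxes, 1 RUNX and 1 EBF match, and that of Vpreb3 held 1 E-box, 1 RUNX motif and 1 octamer. Dntt, also higher in pool 2, held none of the 4 motifs in this window, and neither did Rag2. Across the 7 members, 5 windows held an E-box, 3 a RUNX motif, 2 an EBF motif and 1 the octamer. Of 32851 windows of the same length in the table, 44.8% held the E-box, 14.0% the RUNX motif, 11.8% the EBF motif and 1.60% the octamer. These matches describe letters only.

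The end-joining genes that act after the recombinase were all expressed. Of 20 listed, 20 reached 1 RPKM in both pools, against 40.5% of all genes, with a median level of 3.42 (log2). The highest were H2afx, the histone variant that marks breaks, at 41.0 ± 3.48 RPKM, the cofactor gene Paxx (listed as BC029214) at 30.5 ± 0.675 RPKM and Xrcc6, which encodes Ku70, at 27.6 ± 1.94 RPKM. The lowest was Dclre1c at 1.35 ± 0.342 RPKM, whose product Artemis opens the hairpins left by the recombinase. No gene of this list was 2-fold apart between the pools, and its median difference was 0.045, close to the 0.044 of the genes above 0 in either pool.

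Genes known to regulate Rag transcription were mostly present. Of 23 listed, 18 (78.3%) were detected in both pools, against 40.5% of all genes, with a median level of 4.04 (log2). Ets1 was at 282 ± 19.1 RPKM, Gata3 at 271 ± 29.8 RPKM and Ikzf1, which encodes Ikaros, at 161 ± 3.18 RPKM. The E protein genes Tcf3 and Tcf12 were at 39.1 and 34.9 RPKM in pool 1 and 39.5 and 34.1 in pool 2, and Foxo1, an activator of Rag genes in B lineage cells, was at 18.1 and 18.7 RPKM. None of these 6 was 2-fold apart between the pools. The B lineage factor Ebf1 was the lowest at 0.0220 and 0.157 RPKM. Among the 5 that were at least 2-fold higher in pool 2 on the log2(RPKM + 0.1) scale, Pax5 had 0.123 RPKM in pool 1 and 5.09 RPKM in pool 2, Myb at 1.40 and 3.46 RPKM, Gfi1b, a repressor of Rag genes, at 0.923 and 2.44 RPKM and Erg at 0.246 and 1.12 RPKM. The fifth was Ebf1. Over the genes above 0 in either pool, 5.27% were at least 2-fold higher in pool 2.

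The partners of the pre-T cell receptor were abundant, while Ptcra was at 0. Of 20 listed genes 19 (95%) were detected in both pools, against 40.5% of all genes, with a median of 5.36 (log2). The adaptor Lat was at 229.9 ± 12.3 RPKM, Il2ra at 151 ± 6.73 RPKM and Cd3g, a chain of the CD3 complex, at 149.9 ± 64.3 RPKM. Cd8a, a coreceptor gene of later thymocytes, was the lowest and had no reads. In this list 4 of the 20 genes, among them Cd247, Themis and Dtx1, were at least 2-fold higher in pool 2. The share over the genes above 0 in either pool was 5.27%. Hes1, a Notch target, was lower in pool 2 at 3.02 against 10.2 RPKM. Of the antigen receptor constant regions, 14 were matched and 13 of them (92.9%) detected in both pools. Their higher value was in pool 2 for 8 of the 14 and in pool 1 for 6. This split lies near that of the genes above 0 in either pool, of which 57.0% were higher in pool 2. Trdc of the delta chain had 18.4 RPKM in pool 1 and 130.4 RPKM in pool 2, whereas Trbc2 of the beta chain was at 437 and 427 RPKM. In the other direction, Tcrg-C4 of the gamma locus had 675 RPKM in pool 1 and 422 in pool 2, and Ighm, the mu heavy chain, 413 and 347 RPKM.

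Most partners of the pre-B cell receptor reached the detection threshold, and several did not. Of 17 listed genes 12 (70.6%) were detected in both pools, against 40.5% of all genes, with a median of 1.54 (log2). Il7r led the list, followed by Ikzf3 (Aiolos) at 105 ± 47.2 RPKM and Cd79b, a signalling chain of the B cell receptor, at 40.7 ± 10.1 RPKM. Its partner chain Cd79a was at 1.12 and 2.39 RPKM. At least 2-fold higher in pool 2 were 7 of the 17, among them the kinase gene Blk at 5.12 and 31.7 RPKM, the adaptor Blnk at 0.566 and 1.39 RPKM and the coactivator Pou2af1 at 0.713 and 2.91 RPKM. The share over the genes above 0 in either pool was 5.27%. The list median of the difference was 0.64, against 1.23 for the members and 0.044 for the genes above 0 in either pool.

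**Figure D4:**
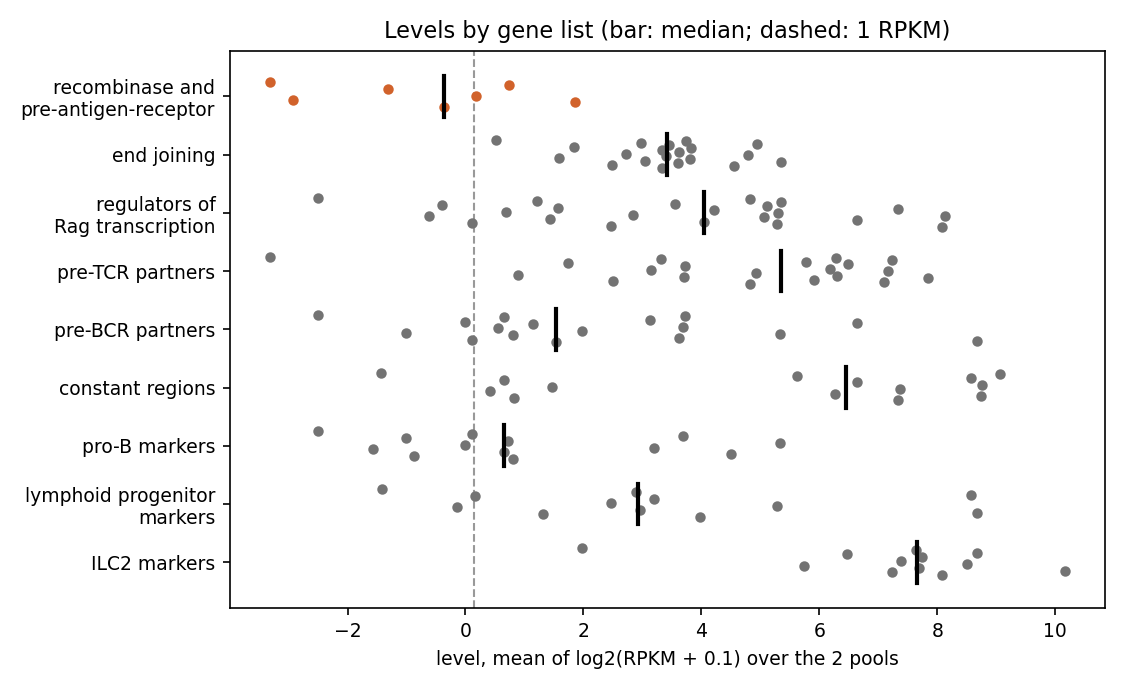
Level of each gene (points, mean of log2(RPKM + 0.1) over both pools) by list, with bars for list medians and a dashed line at 1 RPKM. The median of the 7 recombinase and pre-antigen-receptor genes is -0.37, against 3.42 for end joining, 5.36 for pre-TCR partners and 1.54 for pre-BCR partners.

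Markers of other cell types that can express these genes are given beside them. The counts stand against the 57.0% of genes above 0 in either pool that were higher in pool 2 and the 5.27% at least 2-fold higher there (12.0% in the members' range of levels). Of 13 pro-B markers 10 had their higher value in pool 2, 8 of them at least 2-fold, and 3 had it in pool 1. Their summed level was 75.7 RPKM in pool 1 and 126 in pool 2, and Cd79b, Cd72 and Blk make up most of it. Ebf1, the lowest of the list, stayed under 1 RPKM in both pools. Pax5 was at 0.123 and 5.09 RPKM and Blk at 5.12 and 31.7 RPKM. Of 12 listed thymocyte genes 10 had their higher value in pool 2, 4 of them at least 2-fold. They summed to 233 RPKM in pool 1 and 309.8 in pool 2. This list also holds the coreceptor genes Cd4, Cd8a and Cd8b1 of later thymocytes, so it is not one of early thymocytes alone. Of these, Cd8a was at 0, Cd8b1 at 1.26 and 2.42 RPKM and Cd4 at 27.7 and 33.5 RPKM. Of 12 early lymphoid progenitor markers 10 had their higher value in pool 2, 2 of them at least 2-fold (Cd34 at 1.26 and 4.48 RPKM, Sox4 at 3.67 and 8.04 RPKM), with sums of 849 and 916 RPKM. Il7r and Ighm make up most of these sums, and the other 10 summed to 79.1 and 103 RPKM. Flt3 was at 0.703 and 1.45 RPKM. Of 13 plasmacytoid dendritic cell markers 9 had their higher value in pool 2, 1 of them at least 2-fold. They summed to 438 RPKM in pool 1 and 479 in pool 2, most of it from Ccr9 (239 and 264 RPKM) and Bst2 (133 and 137 RPKM). The defining gene Siglech was at 2.04 and 1.58 RPKM. These plasmacytoid counts lie near the shares of all genes. The ILC2 markers summed to 3001 and 3596 RPKM, and 8 of 12 had their higher value in pool 2, 0 of them at least 2-fold. Areg, the amphiregulin gene, was at least 2-fold higher in pool 1 at 5.90 and 2.48 RPKM. The part of any of these cell types in the values of the 7 genes was not tested.

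**Figure D5:**
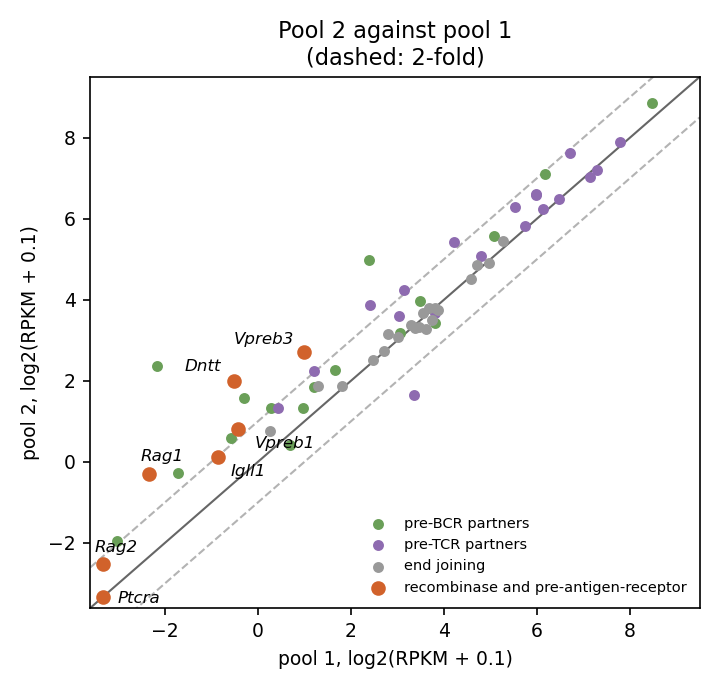
Pool 2 against pool 1, each as log2(RPKM + 0.1), for the members and 3 lists; the solid line is equality and dashed lines are 2-fold. Rag1, Dntt, Vpreb1 and Vpreb3 lie above the upper dashed line, and the 20 end-joining genes between the dashed lines.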

How the data were processed

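RNA was measured by RNA sequencing (TruSeq RNA kit, 100 ng of total RNA, per the labels' protocols) in 2 libraries of 1 group. The authors deposited 1 value per Entrez gene, RPKM, that is counts divided by gene length and library total; the files do not name the unit, which was read from the steps between values. The mm10 build, CASAVA 1.8.2, featureCounts and edgeR (3.8.2, 3.22.0) appear in the submitters' processing notes with no role. An aligner or a strand setting is not given in the sources used here.

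Library totals were found from genes with equal reads in both libraries and GENCODE M21 lengths (29 genes at the peak of 1 read). All 17233 genes above 0 gave whole reads within rounding at some whole length of 20 to 130000 bases, against 0.90% of 1000 genes with totals wrong by 1 part in 1000. The search was tested on simulated data. For the members and Vpreb2, the multiple of that length nearest an annotated one was used.

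Levels and differences used log2(RPKM + 0.1), and detection 1 RPKM in both pools. With 1 group, no test between samples exists. Intervals are exact (Clopper-Pearson), cover counting error only and treat reads as independent molecules. Python 3.11.15 and SciPy 1.17.1 were used.

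Members and 11 gene lists (130 other genes matched) were chosen with earlier results of these data known. Named genes were all members, the 3 highest and 1 lowest of each list, the Rag neighbours, Vpreb2 and the 2 listed genes nearest each member in level; other genes were chosen after their values were seen, and some that the rule takes are left out here. Alternatives were other pseudocounts, thresholds and scaling, single pools and, added after seeing the data, read ratios.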

Additional observations from a re-analysis of the deposited data

How the results depend on the processing

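For the 6 differences above 0 between the pools, the alternatives could change the size but not the sign. A pseudocount is added to both pools alike, and the read ratios of the 5 with reads in both pools use the same lengths and library totals. Median-ratio scaling was a shift of 0.044 on the log2 scale, less than the smallest difference (0.80 for Rag2). With a pseudocount of 1 RPKM the difference fell to 0.65 for Rag1 (2.06 with 0.1) and 1.61 for Dntt (2.50), and 2 members in place of 4 were 2-fold apart; with 0.01 there were 6. Scaling by median ratio gave 2.02 for Rag1. Mean levels on the log2 scale depend on the pseudocount: with 1 RPKM they were 0.46 for Rag1, 0.052 for Rag2, 0 for Ptcra, 0.77 for Igll1 and 1.06 for Vpreb1, and with 0.01 RPKM they were -5.11 for Rag2 and -6.64 for Ptcra.

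The number of members detected was 1 at 1 RPKM in both pools, 3 at 0.5 RPKM, 5 above 0, and 1 to 3 when either pool was left out; it was 3 without pool 1. For the 11 lists, 43 of 44 alternative counts were within 1.5 times the count given. The exception was pro-B markers, of which 13 were above 0 in both pools against 6 at 1 RPKM. No paired analysis was possible because there is only 1 group. Depth limits Rag2, Ptcra and Vpreb2, which had 5 reads or fewer in each pool.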

Other observations

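Kappa and heavy chain segments summed to more in pool 1, and lambda segments to slightly more in pool 2. The summed RPKM of 103 kappa V segments was 137 in pool 1 and 19.97 in pool 2, and of 120 heavy V segments 59.8 and 22.5, none of them at 1 RPKM in both pools. The kappa constant region Igkc was at 205 and 48.4 RPKM. The 3 lambda V segments summed to 2.24 and 2.68 RPKM and the 3 lambda J segments to 5.21 and 6.63 RPKM. Igll1, Vpreb1 and Vpreb3 were higher in pool 2. Of the T cell receptor loci, 24 beta V segments summed to 298 and 392 RPKM with 19 detected in both pools, 13 beta J segments to 1337 and 1352 RPKM, 6 gamma V segments to 39.6 and 140.5 RPKM and 5 delta V segments to 52.3 and 145 RPKM. Of the gamma constant regions, Tcrg-C1 went the other way with 506 RPKM (pool 1) and 359 RPKM (pool 2), as did Tcrg-C4 with 675 and 422 RPKM. The segments were looked at after other values were seen, a value for a segment does not show that it was rearranged, and near-identical segments may share reads.

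Over both libraries, the genes nearest to each member among 130 listed ones in log2(RPKM + 0.1) were Prr5l for Rag1 (distance 0.50), Vpreb2 and Arpp21 for Rag2 (0.32 and 0.36), Pou2af1 and Gfi1b for Dntt (0.46 and 0.85), Bcl11a and Mef2c for Igll1 (0.14 and 0.33), Flt3 and Blnk for Vpreb1 (0.20 and 0.27) and Dtx1 and Cd34 for Vpreb3 (0.52 and 0.75). With 2 libraries this is a likeness of level, not of pattern.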
